A study of Mus musculus with 12 samples.

Results

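The genes described here drive the G1/S transition and copy the genome in S phase. They are 47 genes, of 43472 in the deposited table, chosen by name, and each name had 1 row there. By role they comprise 5 G1 cyclins, 4 kinase and phosphatase genes of G1/S, 3 genes of the Rb and E2F switch, 6 of origin recognition and licensing, 6 of the MCM helicase, 6 of helicase activation, 4 of polymerases and primase, 5 of the sliding clamp and its loader, 3 of single-strand binding, 2 of Okazaki fragment joining and 3 of nucleotide supply. Levels are in CPM, the reads of a gene per 1e6 reads of its library, and 45 of the 47 reached the mean of 3.582 CPM that was asked of a gene before testing, as did 10751 of all genes.

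The libraries were whole-embryo RNA-seq of the CD1 mouse strain collected as morulae, early blastocysts or late blastocysts. All embryos had been injected as zygotes with GFP mRNA, which marks injected embryos, together with either a negative control siRNA or an siRNA against Tdgf1, whose product Cripto sits on the cell membrane and helps Nodal bind its receptors. Each of the 3 stages thus has a control group and a Tdgf1 siRNA group, with 2 libraries each, 12 in all. Hours of culture and the number of embryos in a library are not given in the sources used here, nor whether the libraries of a group came from separate collections, so p-values measure the spread between these libraries, which may be technical. Since a library holds whole embryos, fewer cells of a type and less RNA per cell cannot be told apart.

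Libraries held 10524640 to 13770264 reads, so a count of 0 allows up to 3 reads, or 0.218 to 0.285 CPM. Tdgf1 read 29.4 and 23.4 CPM in control and 15.5 and 10.98 in siRNA libraries at morula, and 97.3 and 84.6 against 49.5 and 70.8 at late blastocyst. At early blastocyst the values overlapped, at 21.7 and 13.1 against 9.27 and 15.2, and siRNA library 2 of that stage lay above the control of the same number. Markers of the embryo's lineages were present: the summed level of 5 trophectoderm markers (5 of 5 tested) was 374 to 628 CPM at morula, 1538 to 3554 at early blastocyst and 5170 to 7464 at late blastocyst. At early blastocyst the libraries numbered 1 held 3554 (control) and 3303 (siRNA) and those numbered 2 held 1538 and 1649. The 5 inner cell mass and epiblast markers (5 of 5 tested) summed to 697 to 957, 773 to 921 and 253 to 332 CPM at the 3 stages. The 5 primitive endoderm markers (5 of 5) summed to 748 to 779, 698 to 911 and 973 to 1108. Single markers did not all follow the sum of their list. Sox2 averaged 2.20 CPM at morula and 10.9 at late blastocyst, while Pou5f1, Nanog, Klf4 and Esrrb were lower at late blastocyst. At early blastocyst Klf4 averaged 46.6 CPM, against 98.3 at morula, and Pou5f1 378, against 263. Cdx2 averaged 115 CPM at early and 113 at late blastocyst, while the trophectoderm sum rose. Of 10 cumulus and granulosa markers 2 passed the filter, and their sum over the 10 was 29.3 to 41.5, 22.5 to 49.7 and 76.2 to 97.2 CPM at the 3 stages. Of 10 oocyte and maternal markers 2 passed, with sums of 36.1 to 53.2, 55.3 to 80.4 and 76.4 to 103 CPM, and of 8 blood markers 1 passed, with 4.28 to 10.5, 15.9 to 28.4 and 8.25 to 19.2 CPM and Hbb-bt at 0 in every library. Several of these sums and those of the lineages differ between stages, and their part in the stage differences was not tested.

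A cell commits to S phase when D-type cyclins with Cdk4 or Cdk6, and then E-type cyclins with Cdk2, phosphorylate Rb, which releases E2F transcription factors to switch on replication genes. Origins are licensed in G1, when the origin recognition complex, Cdc6 and Cdt1 load the MCM helicase, and fire in S phase, when Cdc45 and GINS join it. Preimplantation embryos divide without growth of the whole embryo, and in mouse embryonic stem cells, which derive from the blastocyst, cyclin E and Cdk2 are known to stay active through much of the cycle.

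E2F sites are a feature of many promoters of these genes, so the promoters of RefSeq (build GRCm38.p6) were searched for the 8-base forms TTTCCCGC, TTTCGCGC, TTTGCCGC and TTTGGCGC on both strands, in the 250 bases before and 50 bases after the gene start that RefSeq gives. A window was at hand for 38 of the 47 genes. Of these, 15 (39.5%) held a match, against 704 of 27025 genes (2.60%) and 744 of 32851 windows (2.26%). These forms can overlap each other, and a match is a run of letters, not a measured site. Starts differ between annotations, and of the 46 upstream windows of the 38 genes 18 run into exons that GENCODE release M21 gives to the same gene. The 250 bases upstream of 5 genes whose levels changed in different directions, and whose windows lie outside all GENCODE exons, read as follows, 5′ to 3′ on the gene's strand, with matches in capitals. Cdc25a (chr9:109875329-109875578 on the plus strand) and Pola1 (chrX:93632156-93632405 on the minus strand) fell from morula to late blastocyst, Cdk2 (chr10:128705052-128705301 on the minus strand) and Mcm6 (chr1:128359706-128359955 on the minus strand) rose, and Tyms (chr5:30073626-30073875 on the minus strand), which fell, has no match in this window.
Cdc25a: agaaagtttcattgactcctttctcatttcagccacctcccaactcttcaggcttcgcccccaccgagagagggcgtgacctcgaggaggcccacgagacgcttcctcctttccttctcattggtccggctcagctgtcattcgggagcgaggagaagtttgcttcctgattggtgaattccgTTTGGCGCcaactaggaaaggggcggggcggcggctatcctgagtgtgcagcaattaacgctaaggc
Pola1: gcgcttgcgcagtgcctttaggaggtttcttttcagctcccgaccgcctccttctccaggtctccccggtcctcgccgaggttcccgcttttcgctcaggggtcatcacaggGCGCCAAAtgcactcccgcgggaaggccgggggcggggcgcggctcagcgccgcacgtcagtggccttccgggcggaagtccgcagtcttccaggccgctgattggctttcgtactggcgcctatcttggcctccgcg
Cdk2: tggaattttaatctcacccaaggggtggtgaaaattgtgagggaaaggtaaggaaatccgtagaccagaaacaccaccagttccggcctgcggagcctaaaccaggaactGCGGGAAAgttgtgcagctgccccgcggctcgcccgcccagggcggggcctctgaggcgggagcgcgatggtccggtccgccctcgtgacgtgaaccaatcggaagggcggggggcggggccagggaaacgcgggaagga
Mcm6: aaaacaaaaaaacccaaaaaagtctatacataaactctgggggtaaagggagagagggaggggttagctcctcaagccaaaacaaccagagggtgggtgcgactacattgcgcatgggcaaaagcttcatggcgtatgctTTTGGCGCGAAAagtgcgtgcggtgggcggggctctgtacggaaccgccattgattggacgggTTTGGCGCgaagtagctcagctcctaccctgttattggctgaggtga
Tyms: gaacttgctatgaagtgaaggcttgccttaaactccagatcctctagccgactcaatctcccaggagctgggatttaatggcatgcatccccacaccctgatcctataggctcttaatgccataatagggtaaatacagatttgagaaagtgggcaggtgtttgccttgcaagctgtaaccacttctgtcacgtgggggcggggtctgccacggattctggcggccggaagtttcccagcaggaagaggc
The match starts 67 bases before the RefSeq start in Cdc25a, 138 in Pola1 and 140 in Cdk2. Mcm6 has 3 matches, starting 110, 106 and 47 bases before it, and the first 2 of them overlap on opposite strands. The GENCODE start is the same base for Cdc25a and Pola1 and lies 20, 41 and 8 bases further into the gene for Cdk2, Mcm6 and Tyms. Of the 15 genes with a match, 4 rose and 5 fell from morula to late blastocyst. Of the 23 with a window and no match 9 rose and 7 fell. Over all genes tested 36.6% rose and 24.3% fell, and whether direction differs with a match was not tested.

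From morula to early blastocyst 11 of the 45 tested genes rose and 4 fell, as tested with limma at a Benjamini-Hochberg adjusted p under 0.05 over all 10751 genes. The genes that rose include Mcm7, Rfc4, Rfc5, Gins2, Fen1, Lig1, Ccnd3 and Cdk4, and those that fell are Rfc1, Pola1, Cdc6 and Ccne2. The share called was 33.3%, against 33.7% of all genes tested, 19.7% of them higher and 14.0% lower, so the genes of replication were called about as often as the rest. Libraries of the 2 stages did not overlap for 16 of the 45 (35.6%, beside 33.7% of all genes). Their median log2 difference was 0.12, beside 0.05 over all genes. The number of calls depended on how the libraries were treated. It was 10 with the same-numbered control and siRNA libraries of a stage kept together as a random block, 7 with each such pair averaged, and 9 without early blastocyst control library 1 or without both early blastocyst libraries numbered 1. Calls over all 10751 genes fell as well, from 3623 to 2553 with the random block and 2204 with pairs averaged. Both fits that keep pairs together called 7 of the 15 (Ccnd3, Cdk4, Mcm7, Gins2, Rfc1, Rfc4 and Rfc5). At least 1 of the 2 fits lost each of Ccne2, Cdk2, Cdc6, Pcna, Pola1, Rpa1, Lig1 and Fen1.

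From early to late blastocyst 7 genes rose and 13 fell. Rpa3, Rb1, Gins2, Cdk6, Prim1, Cdk2 and Lig1 rose, while Rrm2, Cdt1, Ccne1, Rfc1, Mcm7, Pola1, Rpa2, Ccnd3, Cdc6, Cdc45, Gmnn, Cdc25a and Rfc3 fell. The share called was 44.4%, against 44.7% of all genes tested. Stages did not overlap for 16 of the 45 (35.6%, beside 43.6% of all genes). By direction, 15.6% of the 45 rose and 28.9% fell, beside 27.0% and 17.7% of all genes. With TMM scaling, which shifts the median of all genes in this comparison from 0.09 to -0.05, 5 of the 45 rose and 19 fell, beside 19.98% and 25.52% of all genes. The median log2 difference of the 45 was -0.09 as deposited and -0.26 with TMM scaling. TMM, quantile normalization, edgeR and DESeq2 all called 17 of the 20, and at least 1 of them lost each of Prim1, Lig1 and Gmnn. Both fits that keep pairs together called 15 of these 20, all but Cdk2, Gmnn, Cdc25a, Lig1 and Rfc3.

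Over the whole span, from morula to late blastocyst, 15 genes rose and 14 fell, or 64.4% of the 45, against 60.9% of all genes tested (36.6% higher and 24.3% lower). Morula and late blastocyst libraries did not overlap for 26 of the 45 (57.8%, beside 58.9%). The changes ran from -1.73 for Ccne1 to 1.5 for Gins2 on the log2 scale. The balance of rises and falls depended on scaling, since the median of all genes was 0.13 as deposited and lay between -0.07 and 0.00 with 4 other scalings. The split was 11 rises and 18 falls with TMM, 10 and 17 with quantile normalization, 12 and 17 with edgeR and 13 and 17 with DESeq2. Of all genes these called 6588, 6651, 6514 and 6641, against 6547 as deposited. The median of all genes thus moved down with each of these scalings, and whether the move of the 45 differs from it was not tested. All 14 genes that fell and 8 that rose (Cdk2, Cdk6, Gins2, Rfc5, Prim1, Rpa1, Rpa3 and Lig1) passed in the same direction in each of these 4, and no called gene changed sign. Of these, Cdk6 passed the filter only through its late blastocyst level, so some rise was built into its being tested. Both fits that keep pairs together called 25 of the 29, all but Mcm3, Orc6, Pcna and Rrm1. Summed over the 47 genes the level was 4784 to 5183 CPM at morula, 5333 to 5367 at early blastocyst and 4288 to 4719 at late blastocyst. The ranges of the 3 stages did not overlap in CPM without further scaling. The TMM factors varied more among early blastocyst libraries than these sums did. Morula control library 1, at 5183 CPM, had a TMM factor of 0.9405, and early blastocyst siRNA library 1, at 5367 CPM, had 1.0162. Divided by these factors, the sum of the morula library is the higher. The morula and early blastocyst ranges thus overlap under TMM scaling. Whether the ranges stay apart under the other scalings was not tested.

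**Figure D1:**
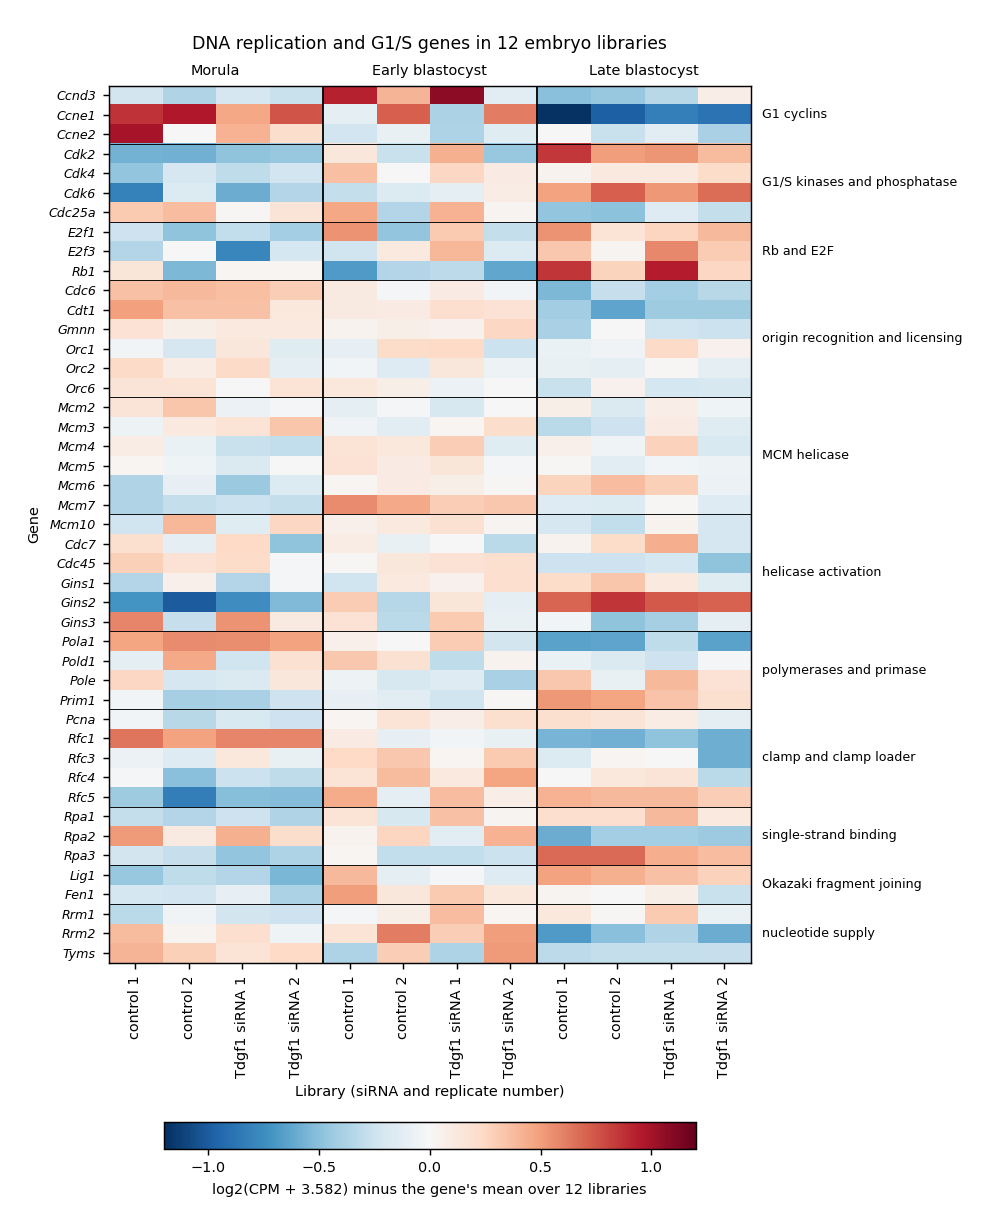
Level of the 45 tested genes in each of the 12 libraries, as log2(CPM + 3.582) minus the gene's mean over all libraries (red above, blue below), in rows ordered by role and columns by stage, siRNA and number. Within several roles some rows turn from blue to red along the stages and others from red to blue, for example Rfc5 and Rfc1, and Ccnd3 and Ccne1 differ between early blastocyst libraries 1 and 2.

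Among the G1 cyclins, D-type cyclin RNA came almost wholly from Ccnd3. Ccnd1 averaged 1.39 CPM over the 12 libraries (4 to 41 reads) and Ccnd2 0.421 CPM (1 to 14 reads), and both stayed under the filter and were not tested. In the order control 1, control 2, Tdgf1 siRNA 1 and Tdgf1 siRNA 2, which all lists of 4 values below follow, Ccnd3 read 148, 134, 149.6 and 143 CPM at morula, 331, 231, 367 and 158 at early blastocyst and 121, 125, 137 and 183 at late blastocyst. It rose into the early blastocyst (log2 0.83 ± 0.21, limma adjusted p = 0.00763) and fell after it (log2 -0.87 ± 0.21, limma adjusted p = 0.00411). All 4 early blastocyst libraries were above all morula libraries, but siRNA library 2, at 158, lay within the late blastocyst range. Early blastocyst libraries numbered 1 had the higher Ccnd3, at 331 and 367, and they also had the higher trophectoderm marker sum given above. The part of that difference in the result was not tested. Without the libraries numbered 1 the early blastocyst change was 0.41 (limma adjusted p = 0.0446), and without those numbered 2 it was 1.26 (limma adjusted p = 4.04e-05).

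Cyclin E1 fell over the stages while Cdk2, its kinase partner, rose. Ccne1, the E-type cyclin that opens S phase, read 174, 186, 131 and 161 CPM at morula, 86.5, 157, 71.3 and 145 at early blastocyst and 39.2, 45.7, 51.5 and 49.0 at late blastocyst. The late blastocyst libraries lay below all others, and Ccne1 fell from early to late blastocyst (log2 -1.18 ± 0.21, limma adjusted p = 0.000535) and over the whole span (log2 -1.73 ± 0.21, limma adjusted p = 8.35e-06). At early blastocyst the 4 values split by number, with 86.5 and 71.3 CPM in libraries 1 and 157 and 145 in libraries 2, and the difference from morula did not pass (log2 -0.55, limma adjusted p = 0.0541). Ccne2, its paralog, read 60.5, 28.8, 39.7 and 34.0 at morula and 21.4 to 26.8 and 21.2 to 28.8 at the 2 later stages. It fell from morula to early blastocyst (log2 -0.61 ± 0.20, limma adjusted p = 0.0269) and was lower at late blastocyst than at morula (log2 -0.60 ± 0.20, limma adjusted p = 0.0161). The call between morula and early blastocyst was lost with either way of keeping pairs together, and without morula control library 1, which held the highest value.

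Cdk2, the kinase that cyclin E activates, read 46.2, 45.8, 49.2 and 50.2 CPM at morula, 77.7, 58.0, 95.7 and 50.2 at early blastocyst and 129, 101, 103 and 92.3 at late blastocyst. The late blastocyst libraries were all above the morula libraries, and Cdk2 rose over the span (log2 1.09 ± 0.17, limma adjusted p = 0.000114). Early blastocyst siRNA library 2 was level with morula, and the steps on either side of that stage (0.48 and 0.60) passed as deposited but not with pairs averaged. The ratio of Ccne1 to Cdk2 reads in a library was 2.67 to 4.06 at morula, 0.745 to 2.89 at early blastocyst and 0.303 to 0.531 at late blastocyst. Cdc25a, the phosphatase that removes inhibitory phosphates from Cdk2, was lower at late blastocyst than at morula, as Ccne1 was. At early blastocyst Cdc25a was higher in the libraries numbered 1, the reverse of Ccne1. It read 82.96, 86.3, 66.8 and 73.7 at morula, 92.3, 50.8, 89.3 and 67.4 at early blastocyst and 46.5, 45.7, 59.1 and 53.3 at late blastocyst, where all 4 libraries were below morula (log2 -0.57 ± 0.16, limma adjusted p = 0.00833).

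The kinases of the D-type cyclins rose. Cdk4 read 226, 275, 256 and 269 CPM at morula, 408, 318, 376 and 339 at early blastocyst and 326, 344, 344 and 368 at late blastocyst. Morula libraries were below all others, the rise came in the first step (log2 0.48 ± 0.11, limma adjusted p = 0.00458), and the later step was -0.05 and did not pass. Over the span the call for Cdk4 was lost with TMM scaling. Exons of Tspan31 on the opposite strand cover 31.2% of those of Cdk4, and Tspan31 averaged 106, 134 and 186 CPM at the 3 stages. Strand is not stated for these libraries, so reads in the shared part cannot be told apart. The same limit holds for other members. Opposite-strand exons of Bysl cover 14.75% of those of Ccnd3, Ints8 10.5% of Ccne2, Nif3l1 24.0% of Orc2 and Gm12743 11.9% of Orc1. At the 3 stages Bysl averaged 168, 165.8 and 92.3 CPM, Ints8 56.8, 62.2 and 72.0, Nif3l1 65.2, 87.8 and 68.4 and Gm12743 6.63, 7.87 and 6.59. Cdk6, the other kinase of D-type cyclins, was scarce, with 0.747, 3.23, 1.47 and 2.38 CPM at morula, 2.65, 3.20, 3.45 and 4.52 at early blastocyst and 7.06, 8.95, 7.33 and 8.56 at late blastocyst, where all 4 libraries were highest (log2 0.72 ± 0.18, limma adjusted p = 0.00524 for the last step). Its means of 1.96 and 3.45 CPM at the first 2 stages lay under the filter, which it passed through late blastocyst. Some rise was thus built into its being tested.

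All 3 genes of the Rb and E2F switch were low and rose over the span. Rb1, the pocket protein that holds E2F factors back, read 5.41, 1.995, 4.66 and 4.67 CPM at morula, 1.49, 2.76, 2.95 and 1.68 at early blastocyst and 11.1, 6.17, 12.05 and 6.09 at late blastocyst. No late blastocyst library overlapped an earlier one, and the rise from early to late blastocyst passed (log2 1.07 ± 0.22, limma adjusted p = 0.00156). E2f1, an activating E2F factor, read 10.9, 8.74, 10.5 and 9.43 at morula and 21.5, 15.7, 17.1 and 19.0 at late blastocyst, without overlap (log2 0.70 ± 0.22, limma adjusted p = 0.0150), while its early blastocyst values of 21.5, 8.86, 17.9 and 10.6 split by library number. E2f3, another activator, read 2.99, 4.85, 1.29 and 3.66 at morula, 3.55, 5.52, 7.47 and 3.90 at early blastocyst and 6.97, 5.01, 8.99 and 6.80 at late blastocyst (log2 0.65 ± 0.20, limma adjusted p = 0.0122). Quantile normalization removed the call over the whole span for all 3 of these genes. Rb1, E2f3 and Cdk6 averaged under 3.582 CPM at the stage where they were lowest and passed the filter through their higher stages, so some difference between stages was built into their being tested.

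**Figure D2:**
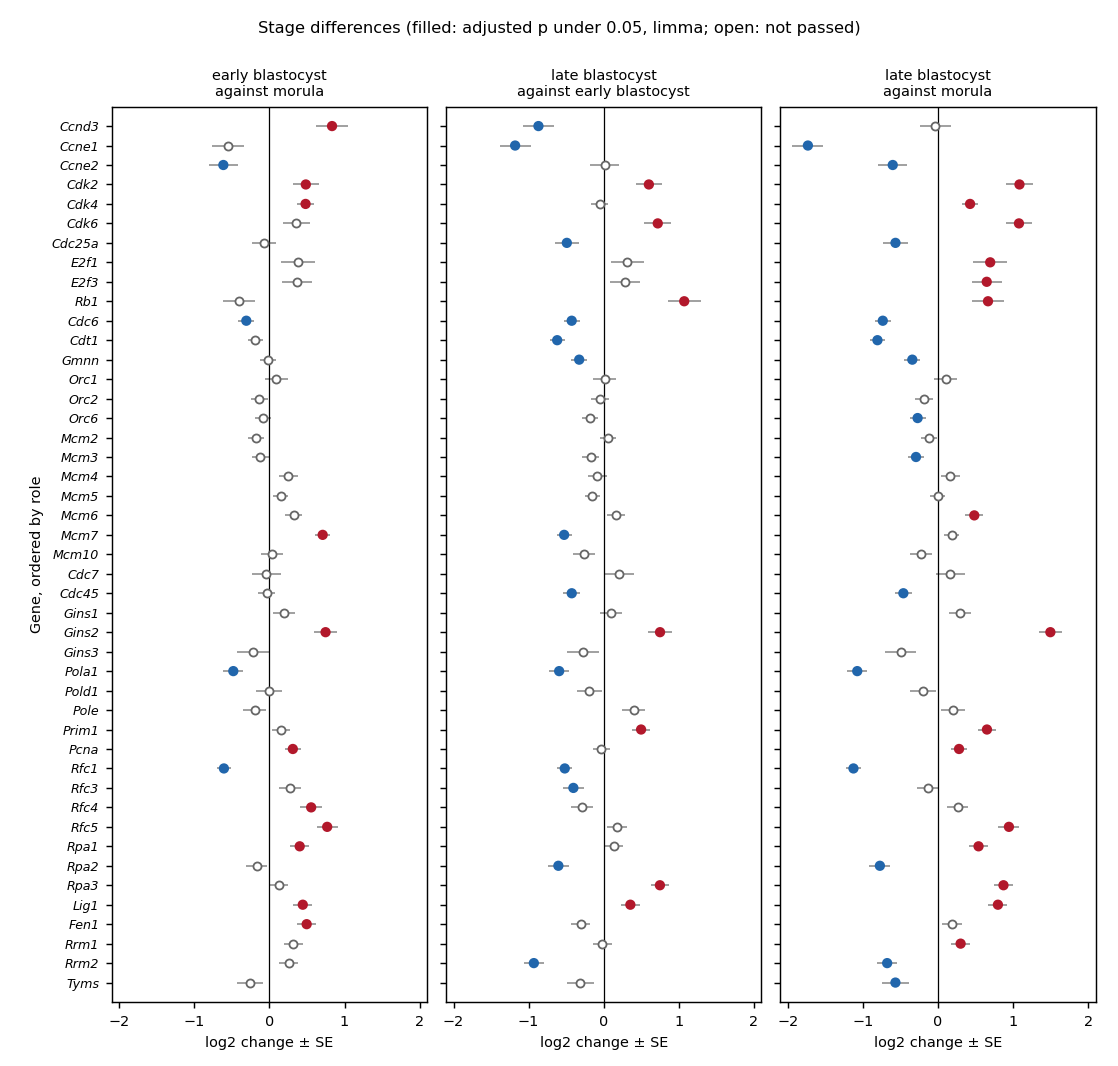
Stage differences of the 45 tested genes in log2 units with their SE, for early blastocyst against morula, late against early blastocyst, and late blastocyst against morula; filled points passed at adjusted p under 0.05 (red higher, blue lower) and open points did not. The first panel has 11 red and 4 blue points, the second 7 and 13, and the third 15 and 14.

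Cdc6 and Cdt1, the licensing factors that together load the MCM rings onto origins, fell. Cdc6 read 124, 127, 125 and 119 CPM at morula, 104, 95.6, 103 and 94.3 at early blastocyst and 65.5, 79.2, 71.8 and 76.0 at late blastocyst, with no overlap between any stages. Its change over the span was -0.74 ± 0.11 (limma adjusted p = 4.66e-05). The second step passed with pairs kept together (-0.43), whereas the first (-0.31) did not. Cdt1 read 205, 187, 186 and 159 at morula, 157, 156, 167 and 164 at early blastocyst and 108, 92.6, 107 and 107 at late blastocyst. Morula and early blastocyst overlapped for Cdt1 and the late blastocyst was below both (log2 -0.62 ± 0.10, limma adjusted p = 0.000345 against early blastocyst).

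Geminin (Gmnn), the inhibitor that binds Cdt1 and prevents renewed licensing, fell as well. It read 252, 235, 243 and 242 CPM at morula, 231, 234, 232 and 266 at early blastocyst and 169, 223, 189 and 186 at late blastocyst (log2 -0.34 ± 0.11, limma adjusted p = 0.0133 over the span). The Cdt1 to Gmnn ratio of reads had medians of 0.780, 0.673 and 0.570 at the 3 stages, and its late blastocyst range of 0.415 to 0.638 lay below the morula range of 0.658 to 0.813. The difference between the 2 declines was not tested. The origin recognition subunits, which mark the sites of loading, moved little. Orc1 held 28.0 to 36.3 CPM at morula and 31.0 to 39.0 at late blastocyst, and Orc2 92.3 to 119 and 92.3 to 101, and neither passed in any stage comparison. Orc6 held 129.5 to 147 at morula and 108 to 135 at late blastocyst, a fall of -0.27 that overlapped between groups and was lost with pairs kept together.

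Of the 6 subunits of the MCM ring, which assemble in equal number, Mcm6 and Mcm7 rose and Mcm3 and Mcm7 fell in at least 1 stage comparison. Mcm7 was highest at early blastocyst, with 79.7, 83.9, 85.5 and 84.0 CPM at morula, 155, 143, 127 and 130.2 at early blastocyst and 92.3, 91.5, 104 and 92.3 at late blastocyst. Its 3 stages did not overlap, and it rose (log2 0.71 ± 0.10, limma adjusted p = 0.000216) and then fell (log2 -0.53 ± 0.10, limma adjusted p = 0.000934). Mcm6 climbed from 108, 131, 102 and 125 through 143, 151, 147 and 142 to 170.4, 183, 172 and 134, and passed over the span (log2 0.48 ± 0.12, limma adjusted p = 0.00291) but not with TMM scaling. Late blastocyst siRNA library 2, at 134, was below the early blastocyst range of 142 to 151. Mcm3 held 82.6 to 109.6 at morula and 68.5 to 92.8 at late blastocyst, a fall of -0.29 that overlapped between groups and was lost with pairs kept together.

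For Mcm2, Mcm4 and Mcm5 no stage comparison passed. Mcm2 read 165 to 221, 152 to 175 and 154 to 184 CPM at the 3 stages, Mcm4 104 to 137, 116 to 159 and 113 to 156, and Mcm5 141 to 162, 158 to 179.8 and 145 to 161. The ranges of these 3 genes overlapped between stages throughout. The 95% interval of the change from morula to late blastocyst was -0.22 to 0.21 for Mcm5, -0.35 to 0.11 for Mcm2 and -0.11 to 0.44 for Mcm4. Exons of Ap4m1 and Cops6 on the opposite strand cover 10.8% and 2.16% of those of Mcm7, and Cops6 averaged 219, 284 and 250.3 CPM at the 3 stages.

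GINS, a complex of 4 proteins that turns the loaded ring into a working helicase, is represented by 3 genes, of which Gins2 rose. Gins2 rose at each step, from 28.3, 22.5, 27.6 and 32.5 CPM at morula to 60.8, 37.7, 54.2 and 44.8 at early blastocyst and 80.9, 91.2, 83.2 and 81.9 at late blastocyst. No 2 stages overlapped, and it had the largest rise of the 45 over the span (log2 1.5 ± 0.15, limma adjusted p = 2.30e-06), with log2 0.75 ± 0.15, limma adjusted p = 0.00251 in the first step and log2 0.75 ± 0.15, limma adjusted p = 0.00163 in the second. Exons of Gse1 on the opposite strand cover 70.7% of those of Gins2, so their reads cannot be told apart there. Gse1 averaged 15.2, 8.02 and 13.2 CPM at the 3 stages. Gins1 held 44.4 to 60.4 at morula and 51.8 to 73.9 at late blastocyst and did not pass (0.30). Gins3 read 50.3, 25.9, 48.6 and 35.0 at morula and 31.4, 21.98, 23.7 and 29.4 at late blastocyst, and also did not pass (-0.50, limma adjusted p = 0.0556). The ratio of Gins2 to Gins3 reads had medians of 0.718, 1.496 and 3.15, and its ranges at the 3 stages did not overlap.

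Cdc45, the other partner that joins the ring at firing, fell late. It read 92.1, 84.6, 87.8 and 73.4 CPM at morula, 75.4, 82.4, 84.9 and 86.0 at early blastocyst and 62.5, 62.2, 64.2 and 52.5 at late blastocyst, where all 4 libraries were the lowest (log2 -0.43 ± 0.12, limma adjusted p = 0.00868). Cdc7, the kinase that phosphorylates the ring, held 18.2 to 32.3, 20.7 to 28.8 and 22.9 to 37.7 at the 3 stages. Mcm10, a factor needed to start unwinding, held 108 to 169, 131 to 146 and 104 to 132. Both overlapped between all stages and neither passed in any stage comparison.

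Primase and polymerase alpha work as a complex that lays down primers, and Pola1 fell while Prim1 rose. Pola1, the catalytic polymerase subunit, read 121, 130, 129 and 122 CPM at morula, 90.2, 86.7, 108 and 73.7 at early blastocyst and 54.0, 54.5, 69.2 and 54.0 at late blastocyst. Stages did not overlap, and it fell over the span (log2 -1.08 ± 0.13, limma adjusted p = 1.00e-05), while its first step was lost with pairs averaged. Prim1, the subunit that makes the RNA primer, held 43.8 to 57.3 at morula, 49.2 to 59.3 at early blastocyst and 85.9, 82.9, 75.6 and 67.9 at late blastocyst. All 4 late blastocyst libraries were the highest (log2 0.65 ± 0.12, limma adjusted p = 0.000481). The catalytic subunits of the polymerases that extend the primers, Pold1 on the lagging and Pole on the leading strand, did not pass. Pold1 held 20.4 to 35.3, 19.3 to 31.8 and 20.2 to 24.4 CPM at the 3 stages, and Pole 33.8 to 47.6, 29.4 to 37.8 and 37.1 to 52.9.

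In the clamp loader, a ring of 5 proteins that opens PCNA and places it on primed DNA, Rfc1 fell while Rfc5 rose. Rfc1, the large subunit that is particular to this loader, read 276, 247, 266 and 266 CPM at morula, 188, 164, 172 and 164 at early blastocyst and 118, 116, 125 and 116 at late blastocyst. Its 3 stages did not overlap and it had the smallest p-value of the 45 over the span (log2 -1.13 ± 0.10, limma adjusted p = 5.26e-07), with log2 -0.61 ± 0.10, limma adjusted p = 0.000524 in the first step and log2 -0.52 ± 0.10, limma adjusted p = 0.000878 in the second. Rfc5, a small subunit, went the other way, from 74.6, 55.8, 70.1 and 70.0 to 139.7, 94.3, 132 and 108 and 137, 135, 135 and 125. Morula was below both later stages, and the rise passed in the first step (log2 0.77 ± 0.14, limma adjusted p = 0.00109) and not in the second (0.18). The ratio of Rfc1 to Rfc5 reads went from 3.70 to 4.42 at morula through 1.30 to 1.73 down to 0.863 to 0.927, without overlap.

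Rfc4, another small subunit, read 158, 112, 133 and 129 CPM at morula, 179, 209, 174 and 224 at early blastocyst and 161, 175, 179 and 127 at late blastocyst. All early blastocyst libraries were above morula (log2 0.56 ± 0.14, limma adjusted p = 0.00907), and late blastocyst overlapped both. Rfc3, also a small subunit, held 56.6 to 69.7, 64.3 to 80.2 and 40.9 to 64.7, and its fall in the second step overlapped between groups and was lost with pairs kept together. Pcna, the sliding clamp itself, held 83.1 to 103 at morula, 107 to 121 at early blastocyst and 97.1 to 121 at late blastocyst. Its rise from morula (0.31 to early and 0.28 to late blastocyst) was lost under all 4 other scalings and with pairs kept together. A Pcna pseudogene, Pcna-ps2, reached 44.6 CPM, and reads of near-identical sequence could be split between them by the authors' counting. On the opposite strand, exons of Wsb2 cover 15.4% of those of Rfc5 and exons of Eif4a2 13.4% of those of Rfc4.

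RPA, the trimer that coats single-stranded DNA, has 3 subunits, of which Rpa2 fell while Rpa1 and Rpa3 rose. Rpa2, the middle subunit, read 217, 163, 205 and 176 CPM at morula, 155, 182, 137 and 203 at early blastocyst and 99.0, 113, 113 and 111 at late blastocyst. Late blastocyst was below both earlier stages (log2 -0.60 ± 0.14, limma adjusted p = 0.00341 for the last step). Rpa3, the small subunit, read 34.7, 33.3, 28.6 and 30.8, then 41.7, 32.6, 32.6 and 33.5, then 67.7, 67.5, 56.7 and 53.8, with late blastocyst above both (log2 0.75 ± 0.12, limma adjusted p = 0.000369 for the last step). Rpa1, the large subunit that holds most of the DNA contacts, held 70.9 to 77.0 at morula, 80.3 to 118 at early blastocyst and 101 to 122 at late blastocyst, and rose over the span (log2 0.54 ± 0.12, limma adjusted p = 0.00187). Its rise in the first step (log2 0.40 ± 0.12, limma adjusted p = 0.0230) was lost with either way of keeping pairs together. The ratio of Rpa2 to Rpa3 reads had medians of 5.98, 4.89 and 1.84, and the late blastocyst range of 1.46 to 2.06 lay below all earlier libraries.

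**Figure D3:**
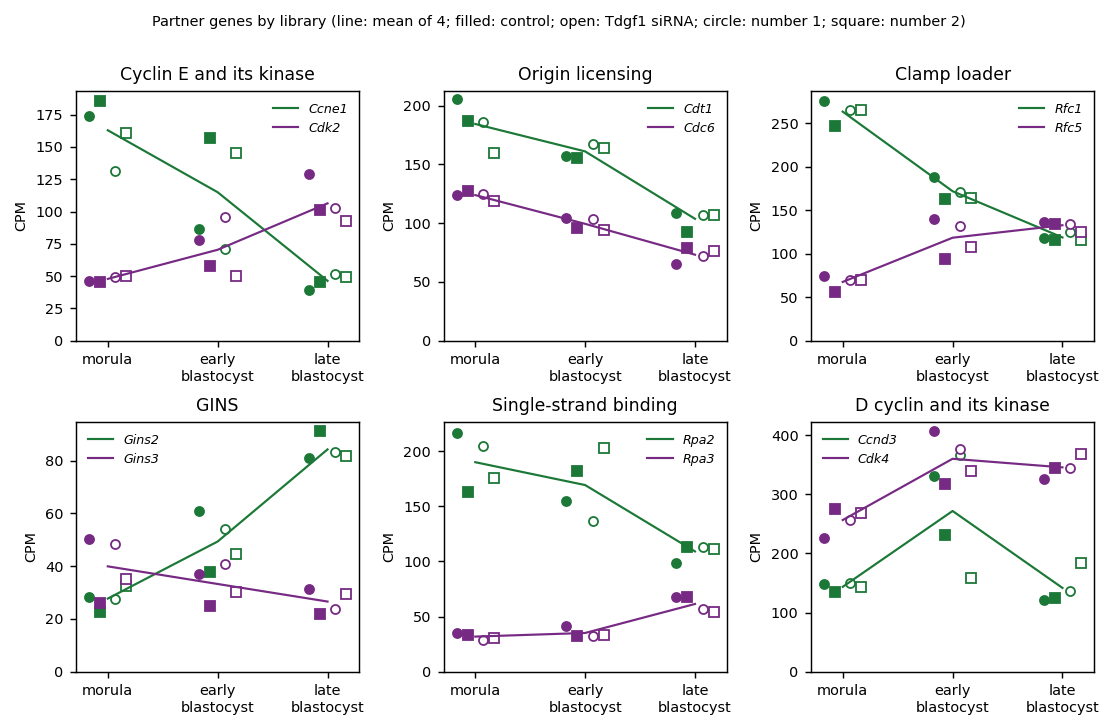
Levels in CPM of 6 pairs of genes whose products work together, by stage; each point is a library (filled control, open Tdgf1 siRNA, circle number 1, square number 2) and lines join the means of 4 libraries. In the cyclin E, clamp loader, GINS and RPA panels the green and purple genes approach or cross, as Rfc1 falls from 246.8 to 276 CPM at morula to 116 to 125 at late blastocyst while Rfc5 climbs to 125 to 137, and in the licensing panel Cdt1 and Cdc6 decline side by side.

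Of the 2 genes that finish Okazaki fragments, Lig1 rose over the span and Fen1 rose from morula to early blastocyst. Lig1, the ligase that seals the fragments, read 61.5, 68.5, 66.4 and 57.4 CPM at morula, 113, 79.4, 84.6 and 76.5 at early blastocyst and 121, 117, 110.2 and 104 at late blastocyst. Morula was below both later stages (log2 0.80 ± 0.13, limma adjusted p = 9.72e-05 over the span), and each of the 2 steps alone was lost with pairs averaged. Fen1, the nuclease that trims the flap before sealing, read 65.0, 64.0, 70.5 and 57.3, 108, 83.5, 94.9 and 82.6 and 77.6, 76.0, 79.4 and 62.0. Its early blastocyst libraries were above all others (log2 0.50 ± 0.13, limma adjusted p = 0.0102), and this call was lost with pairs averaged. Fen1 at late blastocyst overlapped morula and did not pass over the span (0.19, limma adjusted p = 0.226). Exons of Gm10143 on the opposite strand cover 78.8% of those of Fen1, and Gm10143 averaged 54.2, 86.9 and 67.7 CPM at the 3 stages, the same order as Fen1, so the reads of the 2 cannot be told apart.

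Among the genes of nucleotide supply, Rrm2 and Tyms fell. Rrm2, the small subunit of ribonucleotide reductase, which sets the enzyme's activity in S phase, read 577, 453, 509 and 427 CPM at morula, 498, 678, 543 and 629.9 at early blastocyst and 274, 312, 343 and 292 at late blastocyst. All late blastocyst libraries were below all others, and the fall from early blastocyst had the smallest p-value of the 45 in that step (log2 -0.93 ± 0.13, limma adjusted p = 0.000100). Rrm1, the large subunit, held 114 to 139.7, 142 to 187 and 136 to 179 at the 3 stages, and its rise over the span (0.30) was lost under all 4 other scalings. The ratio of Rrm2 to Rrm1 reads was 3.24 to 5.06 at morula, 2.91 to 4.48 at early blastocyst and 1.74 to 2.15 at late blastocyst. Tyms, which makes thymidylate, read 366, 337, 307 and 325 at morula, 212, 338, 212 and 394 at early blastocyst and 219.7, 225, 224 and 226 at late blastocyst. Early blastocyst libraries numbered 1 were level with late blastocyst and those numbered 2 with morula, and the fall passed over the span (log2 -0.57 ± 0.17, limma adjusted p = 0.0122).

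Levels of different genes were compared per length, as mean CPM per kb of exons in GENCODE release M21. Rrm2 had the highest level of the 47 at each of the first 2 stages, at 224 and 268 CPM per kb, and at late blastocyst Cdk4 (168) and Gmnn (161) were above it (139). Among the cyclins of late blastocyst, Ccnd3 stood at 57.9, Ccne1 at 23.2, Ccne2 at 7.74 and Ccnd1 at 0.325 CPM per kb, whereas at morula Ccne1 (81.5) was above Ccnd3 (58.7). The 6 MCM genes lay within 26.7 to 55.8 CPM per kb at morula and 25.7 to 51.1 at late blastocyst, an order that Mcm2 led at both stages. In RPA, Rpa2 was the highest at morula (105, beside 47.5 for Rpa3 and 14.3 for Rpa1) and Rpa3 at late blastocyst (91.7, beside 60.2 and 21.2). In the clamp loader Rfc4 was highest at every stage (102, 150.3 and 123), and Rfc1 moved from above Rfc3 at morula (54.9 and 46.7) to below it at late blastocyst (24.8 and 42.8). The catalytic subunits Pole (5.38 at morula) and Pold1 (7.72) were well under Pola1 (23.5) and Prim1 (30.5) at morula. These levels assume full coverage of the annotated exons, and the order was not tested.

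**Figure D4:**
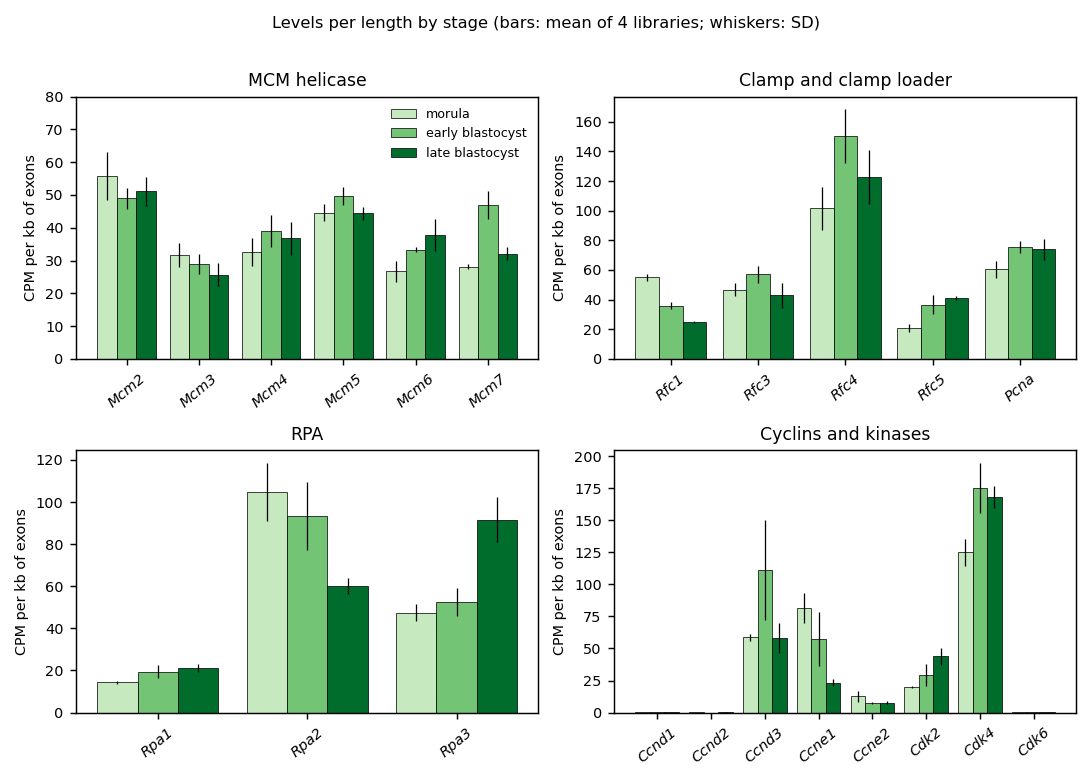
Mean level in CPM per kb of exons at morula, early blastocyst and late blastocyst (bars, light to dark; whiskers are the SD of 4 libraries) for the MCM genes, the clamp and its loader, RPA, and the cyclins and kinases. Rfc4 is the tallest in its panel at every stage, Rpa3 overtakes Rpa2 at late blastocyst, and Ccnd1, Ccnd2 and Cdk6 lie under 1 CPM per kb at each stage.

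Other genes of the same pathway, 57 further names that include replication subunits, E2F and pocket proteins and kinase inhibitors, were tested alongside, and 52 passed the filter. From morula to early blastocyst 9 rose and 8 fell (32.7%, against 33.7% of all genes), from early to late blastocyst 13 rose and 8 fell (40.4%, against 44.7%), and over the span 21 rose and 14 fell (67.3%, against 60.9%). With TMM scaling the split was 8 and 9, 6 and 15, and 11 and 19. TMM called 3687, 4892 and 6588 of all genes in these comparisons, where the median of all genes was 0.04, -0.05 and -0.03. Over the span the smallest p-values among rises were those of Rbl1 (1.5), a pocket protein related to Rb1, Rfc2 (1.11), a small subunit of the clamp loader, E2f8 (1.5), a repressing E2F factor, Mcm8 (0.92) and Pold4 (0.93). Among falls they were those of Pold3 (-1.64), a subunit of polymerase delta, Cdk1 (-1.36), the mitotic kinase, Ticrr (-1.02), which helps Cdc45 onto origins, Pole3 (-0.70) and Ccna2 (-0.69), the cyclin of S phase and G2. Rfc2 rose from 78.6, 62.9, 70.5 and 67.5 CPM at morula to 162, 157, 168 and 132 at late blastocyst, as Rfc5 of the same complex did, and Rbl1 from 14.6, 17.0, 9.58 and 11.3 to 49.3, 44.7, 42.9 and 35.8. In both genes the late blastocyst libraries lay above every morula library. Pold3 fell from 194, 232, 175 and 219 to 64.4, 54.5, 77.2 and 57.5, without overlap.

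Between Tdgf1 siRNA and control embryos none of the 45 genes passed at any stage, in the average over stages or in the test of whether the siRNA difference varied with stage. The same held for all 10751 genes (0.0% called by limma in each of these 5 comparisons). Tdgf1, the siRNA target, was among the genes tested and was not called either. The lack of a call thus does not show that a gene was unchanged. At an unadjusted limma p under 0.05, 0 of the 45 passed at morula, 0 at early blastocyst, 0 at late blastocyst and 1 in the average. Beside these stood 194, 112, 221 and 268 of all 10751 genes. On whole reads edgeR called 0 of the 45 and 0 of all genes in each of the 5 comparisons. DESeq2, which was not run for the difference by stage, called 0 of the 45 in the other 4 and 1 of all genes, at late blastocyst. With same-numbered libraries of a stage as a fixed block, 0 of the 45 passed in each comparison, beside 5, 5, 3 and 0 of all genes at the 3 stages and in the average. Over the 45 genes the 95% intervals of the average siRNA difference ran from -0.50 to 0.49 on the log2 scale, with a median SE of 0.107.

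Mcm3 was higher after Tdgf1 siRNA in 6 of 6 same-numbered pairs, and had the smallest p-value of the 45 in the average. Control libraries held 82.6 and 94.1 CPM and siRNA libraries 97.4 and 109.6 at morula, 84.0 and 78.4 against 87.9 and 101 at early blastocyst, and 68.5 and 72.0 against 92.8 and 77.8 at late blastocyst. The 2 arms did not overlap within any stage, and the average difference was 0.23 ± 0.09 with an unadjusted p of 0.0264 and a limma adjusted p of 1.0. It was the 1 gene of the 45 to be higher in all 6 pairs and none was lower in all 6, beside 3.23% of all genes higher and 1.79% lower. Next by p-value in the average came Rpa3 (-0.20 ± 0.10), Lig1 (-0.15 ± 0.10) and Pold1 (-0.20 ± 0.14), each with a limma adjusted p of 1.0.

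Within each stage, 4 genes are given by smallest p-value. At morula these were Mcm2 (-0.29 ± 0.15), Mcm4 (-0.29 ± 0.18), Mcm3 (0.22 ± 0.16) and Cdt1 (-0.18 ± 0.14). Mcm2 read 194 and 221 CPM in control and 165 and 173 in siRNA libraries, without overlap. At early blastocyst they were Pold1 (-0.39 ± 0.24), Mcm7 (-0.20 ± 0.14), Lig1 (-0.23 ± 0.18) and Mcm3 (0.20 ± 0.16). The value of Lig1 rested on control library 1, at 113 CPM beside 79.4, and was 0.02 without it. At late blastocyst they were Mcm3 (0.26 ± 0.16), Rpa3 (-0.27 ± 0.18), Gins1 (-0.29 ± 0.20) and Prim1 (-0.23 ± 0.18). All of these had a limma adjusted p of 1.0. Control and siRNA libraries did not overlap for 10 of the 45 genes at morula (22.2%, beside 27.5% of all genes), 7 at early blastocyst (15.6% beside 19.4%) and 13 at late blastocyst (28.9% beside 31.9%). In the test of the siRNA difference by stage, the smallest unadjusted p of the 45 was 0.261, for Mcm2.

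**Figure D5:**
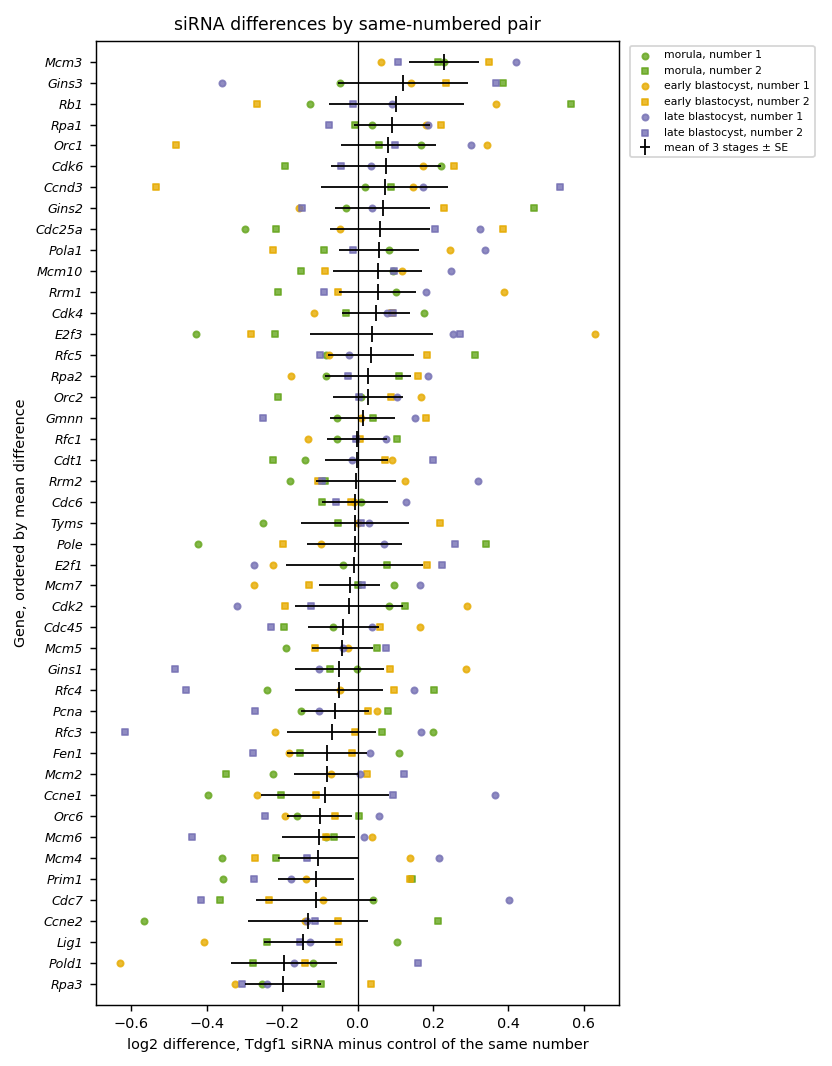
Log2 difference between the Tdgf1 siRNA library and the control library of the same number, for the 45 tested genes ordered by their mean; colours are stages, circles number 1, squares number 2, and the black marks give the mean of the 3 stages with its SE. The points of Mcm3, at the top, all lie right of 0, and those of every other gene fall on both sides.

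Of the 57 other pathway genes, 0 passed in any siRNA comparison with limma. At late blastocyst 1 of the 52 tested was under an unadjusted limma p of 0.05, beside 221 of all 10751 genes, a similar share. It was Cdkn1a, the kinase inhibitor p21, which is named here outside the naming rule given below and only after its values were seen. It read 62.2 and 78.8 CPM in control and 123 and 126 in Tdgf1 siRNA libraries (0.80 ± 0.26, unadjusted p = 0.00815, limma adjusted p = 1.0). At morula and early blastocyst its arms held 150.1, 113, 168 and 181 and 92.8, 171, 82.8 and 125 CPM, and the siRNA libraries were above both controls at morula alone of these 2 stages.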

How the data were processed

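Per the labels' protocols, the SMARTer Ultra Low Input kit amplified the RNA and the NEBNext Ultra DNA kit made the libraries, with no word on strand. The submitters' processing notes list HISAT2 2.1.0, Cufflinks, HTSeq, edgeR and the mm10 build, with no roles. The authors deposited 1 table headed RPKM per the file headers, but its values are CPM divided by a constant of 3.582: whole reads came back for 100% of values within a tolerance of 0.01 reads, whatever the gene's length. The design had assumed RPKM, and its test was kept. Each library's depth limits precision, and its limit at 3 reads covers counting error only, since reads of amplified cDNA, with no identifiers of molecules, are not independent.

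The test was limma 3.58.1 (lmFit, eBayes with trend, R 4.3.3) on log2(deposited value + 1), a pseudocount of 3.582 CPM, for the 10751 genes whose mean over the libraries reached 1 deposited unit. Log2 differences are on that scale, which understates changes of low genes. All 12 libraries entered 1 fit of 6 group means (degrees of freedom: residual 6, prior 7.55), p-values were Benjamini-Hochberg adjusted at 0.05 within a comparison, and stage differences are the mean over both arms. Alternatives included edgeR 4.0.16 and DESeq2 1.42.0 on the recovered reads. The fit was tested on simulated data with known changes.

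Libraries of a group differed by more than read sampling, so none were merged. Deviations of same-numbered control and siRNA libraries correlated at 0.458, 0.593 and 0.101 at the 3 stages. All were over the limit of 0.1, so same-numbered libraries of a stage were treated as pairs in alternative fits. No label states a shared day, and the late blastocyst value only just reaches that limit. The main fit, which gave the SE and adjusted p-values where no other setting is named, held no pairs. It took all libraries as independent, with a correlation within pairs of 0.415 in the random block fit. The genes, lists and tests were chosen with earlier results of these data known. All 47 genes may be named, with full statistics for at most 12 per direction of a stage comparison and 4 per siRNA comparison by smallest p, and of the 57 other genes at most 5 per direction. Coordinates and lengths are from GENCODE release M21 and promoters from RefSeq (GRCm38.p6). Tables and plots used Python 3.11.15, numpy 2.4.6, pandas 2.3.3 and matplotlib 3.10.9.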

Additional observations from a re-analysis of the deposited data

Results flagged for a closer look

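Among 141 sets of 4 libraries (each of the 47 genes at each stage), 9 had a library that stood apart from the other 3 by Dixon's test at 95%. Chance flags about 1 in 20 such sets. At late blastocyst, Tdgf1 siRNA library 1 was the highest for Mcm7 (104.0 CPM, others 91.5 to 92.3), Pola1 (69.2 CPM, others 54.0 to 54.5) and Ccnd2 (1.22 CPM, others 0.0917 to 0.265). At that stage control library 2 was the lowest for Cdt1 (92.6 CPM, others 107 to 108) and control library 1 for Rpa2 (99.0 CPM, others 111 to 113). At early blastocyst, control library 1 was the highest for Rpa3 (41.8 CPM, others 32.6 to 33.5) and Ccnd2 (0.331 CPM, others 0.145 to 0.164), and Tdgf1 siRNA library 2 for Gmnn (266 CPM, others 231 to 234). At morula, Tdgf1 siRNA library 1 was the lowest for Orc6 (129.5 CPM, others 145 to 147). The 2 values of Ccnd2 rest on few reads, since no library held more than 14.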

How the results depend on the processing

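From morula to early blastocyst, 3623 genes and 15 of the 45 were called. Control libraries alone called 1604 and 5, Tdgf1 siRNA libraries alone 1385 and 3, and averaging same-numbered pairs (the replicate block averaged) 2204 and 7. Without a filter 6 of the 45 were called, and 9 without both early blastocyst libraries numbered 1. From early to late blastocyst 4803 genes were called, 2839 in controls alone and 2171 in siRNA libraries alone, where 6 of the 45 were called against 20. From morula to late blastocyst 29 of the 45 were called, 19 in controls alone and 17 in siRNA libraries alone. Fits on 1 arm use fewer libraries, and over the whole span they called 5121 (control) and 4398 (siRNA) of all genes, against 6547 with both. Without a filter 2541 genes were called from morula to early blastocyst.

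Leaving out 1 library at a time gave 2739 to 3580 genes and 9 to 17 of the 45 in the first of these comparisons, 3709 to 4816 and 15 to 21 in the second, and 5810 to 6672 and 22 to 29 in the third.

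For siRNA against control, where 0 genes were called, the replicate block on same-numbered pairs gave 5 genes at morula, 5 at early blastocyst, 3 at late blastocyst and 1 for the difference by stage. With edgeR the block gave 1, 5, 1 in the average of stages and 2 by stage. At late blastocyst no filter gave 11 genes, DESeq2 1, and leaving out 1 library 0 to 1. None of the 45 was among these, and the blocks changed no other call than those given beside the results. Lig1 at early blastocyst was -0.23, and ran from -0.48 to 0.02 (0.0189) with 1 library left out, the latter without control library 1.

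Of single-gene values in stage comparisons, 1318 kept direction and call and 185 kept direction only, and among siRNA values 351 kept both. The cause of these shifts was not tested. Depth limits Ccnd1 and Ccnd2, which were not tested.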
